A study of Mus musculus with 8 samples.

Results

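Tumour-associated microglia (TAM I) were the resident brain macrophages recovered with GL261 glioma tissue in a single-cell RNA experiment, and 167 of the 4807 cells kept from 6 tumour-bearing libraries met the rule for them. Per library, the 1000 barcodes with the most unique molecular identifiers (UMIs, one per captured transcript) were taken and those with at least 1000 genes were kept. A TAM I cell held at least 10 UMIs per 10000 over P2ry12, Siglech, Cx3cr1 and Gpr34, with at least 2 of these 4 genes detected. This sum also had to exceed the sum of the macrophage genes Tgfbi, Thbs1, Ccr2, Ly6c2 and Plac8, and the tumour genes Col9a1, Lect1 and Rhox5 had to stay under 10 per 10000. The rule therefore used measured values of these 12 genes, which describe the cells and were left out of every test. It picked 58 cells in WT early, 15 in KO early, 6 in WT intermediate, 44 in KO intermediate, 20 in WT late and 24 in KO late tumours. In the brains without tumour, the same rule gave 99 WT and 129 KO cells, called naïve microglia here.

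The mice were C57BL/6 by the labels and C57BL/6N by the study's methods, either wild type (WT) or knockout (KO) for the gene Irg1, listed as Acod1 in the tables. The KO allele was tm1a(KOMP)Wtsi, which carries an inserted cassette, and the WT mice were littermates. GL261 cells, a mouse glioma line of C57BL/6 origin, had been implanted in the brain, and the tumour-bearing libraries came from early (5 to 10 mm3), intermediate (20 to 25 mm3) and late (30 to 35 mm3) tumours as sized by MRI. The dissociated tissue was the core seen on MRI, so that TAM I came from inside that region, whereas the naïve samples were brain without a tumour, and tumour, implantation and dissection cannot be told apart here. Each genotype and condition was 1 library, and the label of each naïve library joins 2 animal numbers. Each tumour-bearing library carries its own animal number, so early, intermediate and late samples came from different mice. By the study's methods the early pair was a female WT and a male KO mouse, the intermediate pair a male WT and a female KO mouse, and both late mice were male. TAM I of WT early and KO intermediate held 189 and 142 UMIs of Xist, the transcript of the silenced X chromosome, and those of the other 4 tumour-bearing libraries and of both naïve libraries held 0. The naïve libraries held 74 (WT) and 103 (KO) UMIs of Y-linked genes, so both were male and the female tumour-bearing mice had no female naïve counterpart. Genotype, mouse and library were thus the same thing at each stage, and p-values below measure the spread between libraries. In the early and intermediate pairs sex cannot be told apart from genotype either, and sex was in no fit.

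Microglia settle in the brain before birth and renew themselves there. They sense nucleotides through P2ry12 and the neuronal chemokine fractalkine through Cx3cr1, prune synapses with complement, and lose part of their surveying programme when tissue is injured. In glioma they lie beside macrophages derived from blood monocytes. Both cell types can present antigen on major histocompatibility complex (MHC) molecules, secrete chemokines and answer interferons. The enzyme made from Acod1 turns cis-aconitate into itaconate, a metabolite of activated macrophages.

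The summed UMIs of TAM I per library ranged from 21098 in WT intermediate to 235264 in WT early, with a median of 2624 to 3750 UMIs per cell against 2283 and 2339 in WT and KO naïve microglia. WT intermediate therefore rests on 6 cells, and its values are the least precise. Mitochondrial transcripts made up a median of 7.40% of the UMIs of a TAM I cell in WT early and 1.56% to 4.57% in the other 5 libraries. Over the 28 pairs of libraries, 22 kept barcodes occurred in both, of which 1 was gated as microglia in both.

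The microglia sum of TAM I had a median of 48.9 UMIs per 10000 and a highest value of 158. Just inside the threshold stood sums of 10.0, 10.5 and 11, and just outside, among cells that met every other criterion, 9.62, 8.88 and 8.62. Members below 20 numbered 34. Median sums of 31.1 to 54.7 per tumour-bearing library lay below the 111 and 117 of WT and KO naïve microglia, so the cells stood closer to the threshold in tumours. All 4 gate genes were detected in 84 of 167 TAM I cells and in 200 of 228 naïve microglia. No UMI of the 5 macrophage genes was found in 124 TAM I cells, and 6 carried 10 or more per 10000.

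**Figure D1:**
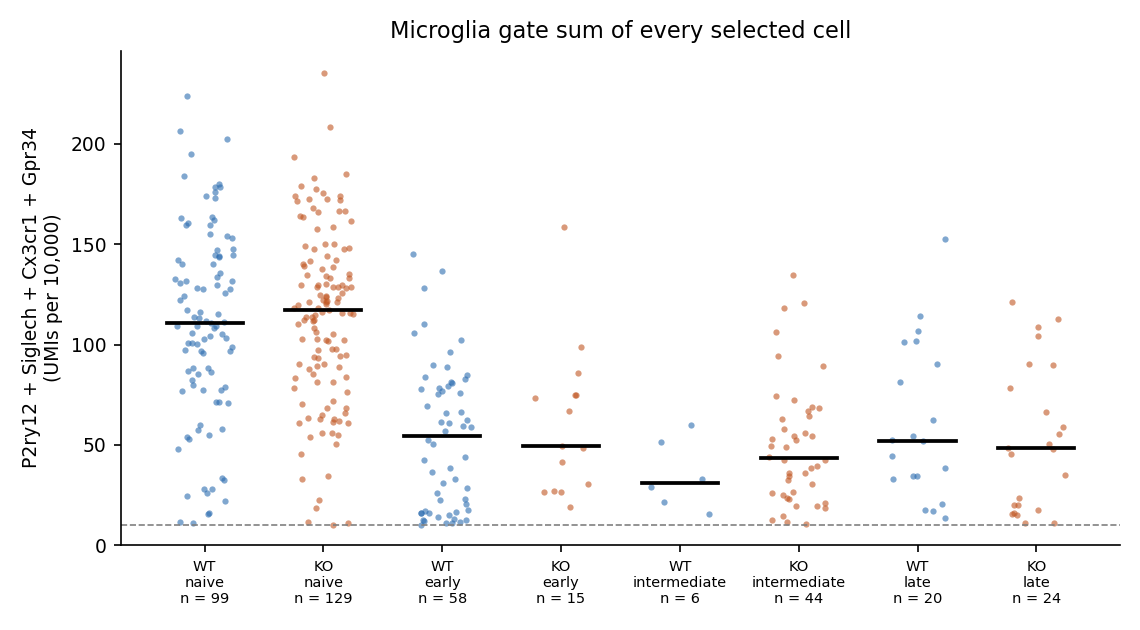
Microglia sum (P2ry12, Siglech, Cx3cr1 and Gpr34, UMIs per 10000) of each gated cell, 1 point per cell and 1 column per library, with black bars at the medians and a dashed line at the gate of 10. Naïve medians lay at 111 and 117 and those of the 6 tumour-bearing libraries between 31.1 and 54.7.

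Genes outside the rule also marked these cells as microglia. C1qa, which codes for a chain of complement C1q, had UMIs in all 167 TAM I cells. Its level was 5781, 4814, 3792, 6498, 5123 and 3872 CPM (UMIs of the gene scaled to a total of 1e+06 UMIs over the gated cells) in WT early, KO early, WT intermediate, KO intermediate, WT late and KO late, the order used for all series of 6 values. In tumour cells of the same libraries C1qa stood at 3 to 128 CPM. The gated macrophages held 1089 to 2548 CPM, so C1qa was lower there but not absent. C1qb, coding for another C1q chain, was at 6499, 7568, 5877, 7103, 5935 and 5691 CPM, against 2199 to 2952 CPM in the gated macrophages, and Tmem119 at 442, 714, 237, 491, 504 and 439 CPM against 9.28 to 106 CPM. Every library thus held cells with a clear microglial profile.

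Transcripts of the targeted gene were too few to check the genotype in these cells. Acod1, on chr14:103046977-103056573 of GRCm38, gave 28, 0, 2, 1, 1 and 3 UMIs in TAM I, or 119 CPM in WT early (exact Poisson 95% interval 79.1 to 172) and 30.7 CPM in KO late. Macrophages of the KO libraries held 27, 5 and 24 Acod1 UMIs, so counted transcripts were present under both genotype labels. An inserted cassette need not remove the 3′ end that the method counts, which was not tested here. By qPCR the study could not detect Acod1 in macrophages grown from KO bone marrow. Libraries are named by their labels throughout. Naïve microglia had 0 Acod1 UMIs in both libraries, so that the TAM I level over all libraries was at least 10.5-fold higher when set against 3 counts in the naïve group. WT early held 28 of the 35 TAM I UMIs, and without it the bound was 3.3-fold.

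Between TAM I and naïve microglia, the data answer which genes differ between microglia from a tumour and from a tumour-free brain. At an adjusted p under 0.05, 533 of the 3493 tested genes (15.3%) differed, 319 of them higher in TAM I (9.13%) and 214 lower (6.13%). Interferon-stimulated, MHC class I, chemokine and cytokine genes were among the higher ones, and microglial identity genes and astrocyte transcripts among the lower ones. The same direction in all 6 libraries was seen for 250 of the higher and 202 of the lower genes, and the median log2 fold change over all tested genes was 0.01. Fewer genes passed when either naïve library was left out. With genotype as a covariate, such a fit sets the tumour-bearing libraries of the other genotype against their own single naïve library. The fall therefore cannot be put down to the library left out, here or in the lists below. All 502 and 503 called genes that could be tested without WT and without KO naïve kept their direction. All adjusted p-values come from the quasi-likelihood test of edgeR, corrected over all genes tested by the Benjamini-Hochberg method.

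Homeostatic genes were lower in TAM I. Of 25 listed genes, all tested, 14 fell and none rose, with a median log2 fold change of -1.11. The list summed to 760 and 854 UMIs per 10000 in WT and KO naïve microglia and to 365, 402 and 506 (lowest, median and highest library) in TAM I, with no overlap between the groups. Without WT naïve 3 of the 25 genes passed, and without KO naïve 1, with medians of -1.24 and -1. Selplg, the ligand of P-selectin, fell from 1741 and 2104 CPM in WT and KO naïve microglia to 332, 643 and 898 CPM (lowest, median, highest), a log2 change of -1.61 (SE 0.33, edgeR adjusted p = 0.00375). Sall1, a transcription factor that maintains microglial identity, fell from 274 and 299 to 61.3, 105 and 142 CPM (log2 -1.40, SE 0.33, edgeR adjusted p = 0.00846). Tmem119, a surface marker of parenchymal microglia, went from 995 and 1211 to 237, 466 and 714 CPM (log2 -1.19, SE 0.31, edgeR adjusted p = 0.0168). In none of these 3 genes did a tumour-bearing library reach a naïve one. Slc2a5 (log2 -1.54), Ecscr (-1.57) and Mef2c (-0.94) were also lower in all 6 libraries and passed, although Mef2c missed the threshold in 9 of 16 alternatives. Fcrls passed narrowly (log2 -1.33, edgeR adjusted p = 0.0478) and missed in 6 of 16 alternatives, as WT intermediate (1517 CPM) and WT late (1522 CPM) lay above the naïve libraries (1450 and 1335 CPM). Csf1r, the receptor for the survival factor CSF1, at 2236 and 2726 against 1043 to 1856 CPM, did not pass (log2 -0.85, edgeR adjusted p = 0.0746). Olfml3, Sparc and Bin1 did not pass either, with log2 values of -0.69, -0.62 and -0.26.

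The 4 genes of the rule itself were also lower in TAM I as levels. P2ry12 stood at 3219 and 3688 CPM in naïve microglia and at 969, 1326, 521, 934, 1162 and 1124 CPM in TAM I, and Cx3cr1 at 3819 and 3803 against 1801 to 2150 CPM. These values carry no test, as the genes chose the cells.

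Complement genes changed in part. Of 10 tested genes 3 rose and 1 fell, with a median log2 fold change of 0.59, and 1 passed when either naïve library was left out. C4b, a component of the classical pathway, rose from 12.1 and 8.88 CPM to 51.4, 267 and 464 CPM (log2 4.73, SE 0.72, edgeR adjusted p = 0.000332). The receptor gene C5ar1 rose by 1.64 on the log2 scale but missed the threshold in 6 of 16 alternatives. C3, the central component, went from 0 to 53 UMIs, at least 15.9-fold higher. The C1q chains C1qa, C1qb and C1qc had log2 values of 0.61, 0.62 and 0.56 and did not pass.

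Interferon-stimulated genes were the list with the largest share of calls among those of more than 10 tested genes. Of 28 tested, 24 rose and none fell, with a median log2 fold change of 3.32, and 18 and 11 of 27 rose without WT and without KO naïve. As a sum the list was at 15.2 and 14.7 UMIs per 10000 in WT and KO naïve microglia and at 68.3, 112, 50.7, 99.5, 68.2 and 128 in TAM I, so every tumour-bearing library exceeded both naïve ones. Tumour cells of the same libraries held 97.1, 121, 67.8, 101, 41 and 120 per 10000, so these transcripts were not particular to TAM I. Isg15, a ubiquitin-like modifier, had 2 UMIs in naïve microglia and 91 in TAM I, a ratio of 41.1 (counting interval 11 to 344). Gbp2, a guanylate-binding protein, rose from 12.1 and 11.8 CPM to 47.4, 593 and 1982 CPM (log2 5.75, SE 0.99, edgeR adjusted p = 0.000967), with WT intermediate lowest and KO late highest. Ifi27l2a rose from 48.4 and 20.7 to 625, 985 and 2611 CPM (log2 4.98, edgeR adjusted p = 4.39e-05).

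The bases before the start sites of Isg15 and Gbp2, and of Cxcl10 from the chemokine list, are shown because these 3 genes rose and hold the letters of an interferon-stimulated response element, GAAANNGAAA on either strand. Capitals mark the match in the 250 bases upstream (RefSeq, GRCm38.p6). Isg15 is chr4:156200819-156201068 on the minus strand, with 3 overlapping copies that begin 78 bases before the start. Cxcl10 is chr5:92348890-92349139 on the minus strand, with 1 copy 213 bases before it, and Gbp2 is chr3:142620413-142620662 on the plus strand, with 1 copy 59 bases before it.
Isg15: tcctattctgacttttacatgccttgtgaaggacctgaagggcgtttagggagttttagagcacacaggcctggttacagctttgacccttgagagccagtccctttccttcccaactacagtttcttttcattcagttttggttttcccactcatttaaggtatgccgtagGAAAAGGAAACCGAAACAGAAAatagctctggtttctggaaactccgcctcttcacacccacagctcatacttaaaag
Cxcl10: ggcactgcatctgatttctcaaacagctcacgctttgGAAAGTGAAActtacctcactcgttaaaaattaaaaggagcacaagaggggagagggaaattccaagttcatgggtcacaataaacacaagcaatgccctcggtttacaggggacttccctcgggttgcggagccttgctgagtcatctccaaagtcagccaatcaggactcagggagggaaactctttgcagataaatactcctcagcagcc
Gbp2: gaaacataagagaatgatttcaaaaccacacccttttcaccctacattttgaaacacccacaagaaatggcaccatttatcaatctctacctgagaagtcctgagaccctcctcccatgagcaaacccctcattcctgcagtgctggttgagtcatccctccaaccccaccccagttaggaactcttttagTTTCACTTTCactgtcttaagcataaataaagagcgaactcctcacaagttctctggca

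Windows of 250 bases before to 50 after the start held these letters in 18 of 35 promoters of the interferon list (51.4%), against 1131 of 32851 promoters in all (3.44%). A promoter was found for 27 of the list's 35 genes. Among MHC class I genes 5 of 21 promoters held a match (23.8%), among chemokines and cytokines 1 of 17 (5.88%) and among homeostatic genes 0 of 25. A match describes letters and is not a site of binding.

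MHC class I and its processing genes were higher in TAM I as well. Of 20 tested, 11 rose and none fell, with a median log2 fold change of 1.70, and 6 and 3 rose without WT and without KO naïve. The list stood at 76.4 and 76.6 UMIs per 10000 in WT and KO naïve microglia and at 313, 382, 204, 358, 195 and 338 in TAM I. WT intermediate and WT late, the lowest 2, were still well above both naïve libraries. B2m, the light chain of class I, rose from 3594 and 3886 to 10019, 15079 and 18297 CPM (log2 1.93, SE 0.38, edgeR adjusted p = 0.00267). The heavy chains H2-D1 and H2-K1 rose by 3.02 and 3.08 on the log2 scale, and H2-Q7 by 6.14. H2-Q6, H2-Q7 and the other class I heavy chains are near-identical in sequence, so how their reads were shared is uncertain. Tap1, a peptide transporter subunit, rose by 2.79, while Tap2 (1.45) and Tapbp (1.05) did not pass.

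MHC class II transcripts split the tumour-bearing libraries. Cd74, the invariant chain, was at 113 and 23.7 CPM in WT and KO naïve microglia and at 9878, 7486, 47.4, 9865, 41.1 and 5405 CPM in TAM I. WT intermediate and WT late lay in the range of the naïve libraries, and the other 4 were at 5405 CPM or more. Of the 9 class II genes tested, 6 passed as higher, with a median log2 fold change of 2.32, namely Cd74 (6.27), H2-Aa (5.60), H2-Ab1 (5.42), H2-Eb1, H2-DMa and Ifi30 (2.23). Only Ifi30, a thiol reductase of antigen processing, was higher in all 6 libraries than in both naïve ones, at 183 to 530 against 60.4 and 91.8 CPM. Without WT early 1 gene passed (median log2 2.24). Without WT naïve the contrast was KO tumours against KO naïve (median log2 2.13). Without KO naïve it was WT tumours against WT naïve (median log2 3.60), where WT intermediate and WT late are the low libraries. In KO naïve microglia H2-Aa was at 2.96 CPM and in WT naïve at 101 CPM.

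The other cells of the same libraries showed the same split. Cd74 stood at 1128, 1225, 42.1, 1082, 47 and 1237 CPM in tumour cells and at 212, 335, 11.1, 134, 0 and 280 CPM in oligodendrocytes, so that WT intermediate and WT late were lowest in each. The class II list, which includes the cathepsin gene Ctss (log2 0.37, not past the threshold), summed to 84.0 and 88.7 UMIs per 10000 in naïve microglia and to 390, 304, 75.4, 368, 64.3 and 263 in TAM I. In macrophages it stood at 388, 380, 58.9, 395, 173 and 383 UMIs per 10000. After thinning each cell to 1500 UMIs, a class II chain was found in 96.6%, 100%, 0%, 100%, 5.00% and 95.8% of TAM I cells, against 3.06% and 5.47% of WT and KO naïve microglia. In WT intermediate this is 0 of 6 cells, a count that by the floor of 3 counts allows a share of up to 50%, and before thinning 1 of these 6 cells (16.7%) and 15% of WT late cells held a class II UMI. The share in tumour cells was 95.9%, 98.6%, 7.33%, 91.7%, 10.4% and 95.7%, in 150 tumour cells drawn per library, with a median of 3294 to 6416 UMIs before thinning. Shares in TAM I, counted as cells with any UMI, therefore lay close to those in tumour cells in all 6 libraries, and the levels differed. The part of free RNA and of each cell's own transcripts in these UMIs was not tested.

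**Figure D2:**
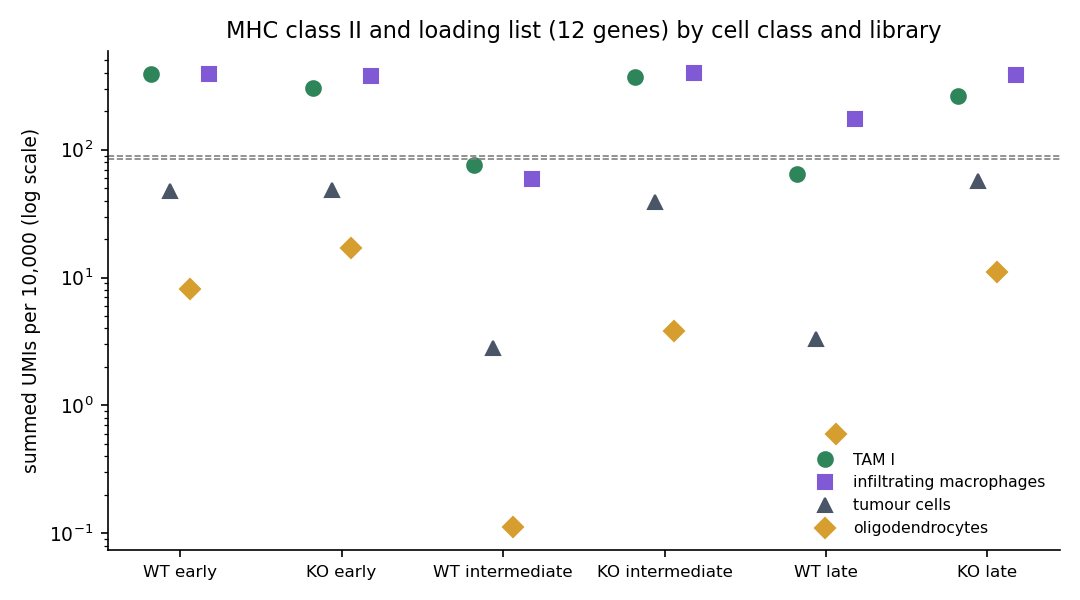
Summed MHC class II and loading list (UMIs per 10000, log axis) in TAM I, macrophages, tumour cells and oligodendrocytes, 1 point per library and class, with dashed lines at the 84.0 and 88.7 of WT and KO naïve microglia. All 4 classes were lowest in WT intermediate and WT late, where tumour cells held 2.82 and 3.31 per 10000 against 39.1 to 56.5 in the other libraries.

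Chemokines and cytokines rose in TAM I. Of 19 tested, 13 rose and none fell, with a median log2 fold change of 2.76, and 11 and 6 rose without WT and without KO naïve. The list went from 27.1 and 27.7 UMIs per 10000 in naïve microglia to 111, 196 and 280 (lowest, median, highest), with no overlap. Il1b, the precursor of the inflammatory cytokine interleukin-1 beta, had 1 UMI in naïve microglia and 984 in TAM I, a ratio of 888 with a counting interval of 159 to 35117. Its level was 1925, 1020, 1043, 1821, 1121 and 807 CPM, and in WT late 1 cell held 64.2% of the UMIs. Ccl12, a monocyte-attracting chemokine, rose from 52.4 and 85.8 to 981, 1602 and 4651 CPM (log2 4.88, SE 0.61, edgeR adjusted p = 7.49e-05). The leukocyte-attracting chemokines Ccl3 and Ccl4 were already abundant in naïve microglia. Ccl4 rose from 1052 and 1042 to 3230, 6884 and 12323 CPM (log2 2.76, edgeR adjusted p = 0.00221) and Ccl3 from 689 and 882 to 960, 3061 and 4403 CPM (log2 1.76, edgeR adjusted p = 0.0244). Tnf, coding for tumour necrosis factor, rose from 12.1 and 17.8 to 247, 971 and 1543 CPM (log2 5.71, edgeR adjusted p = 8.6e-05). Cxcl10, a ligand of Cxcr3 on T cells, had 1 UMI in naïve microglia and 505 in TAM I, a ratio of 456 (counting interval 81.4 to 18040). Cxcl9, with 0 naïve UMIs and 312 in TAM I, was at least 93.9-fold higher.

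**Figure D3:**
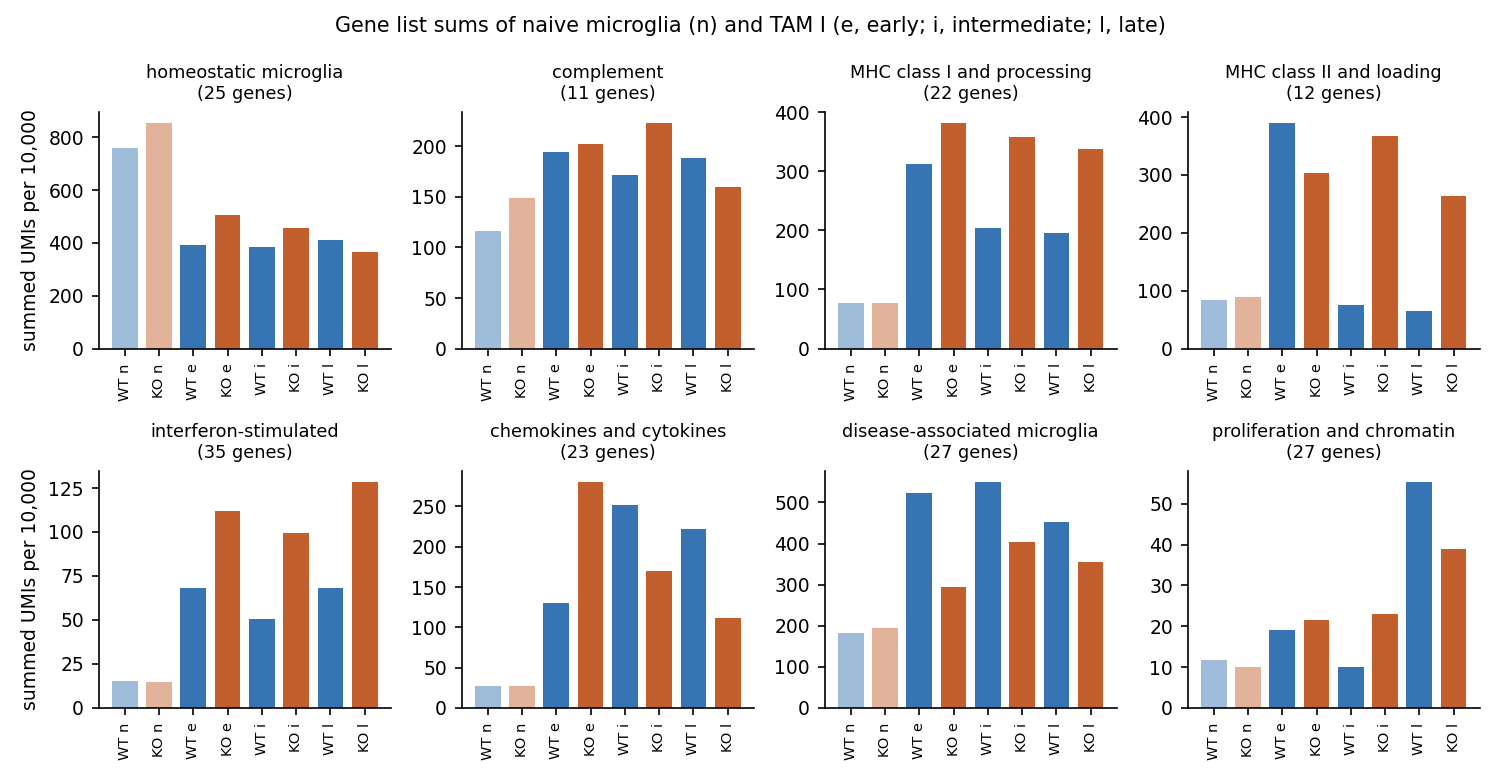
Summed UMIs per 10000 of 8 gene lists in gated microglia, 1 bar per library (blue WT, orange KO, pale naïve), with no error bars because each is 1 library. Interferon-stimulated, MHC class I and chemokine lists were higher in all 6 tumour-bearing libraries than in both naïve ones, the homeostatic list was lower, and the class II list overlapped through WT intermediate and WT late.

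Immediate early genes and genes of NF-kB signalling formed 1 list, of which a minority passed. Of the 26 tested, 7 rose and 1 fell, with a median log2 fold change of 0.27, and 2 and 3 rose without WT and without KO naïve. Nfkbia, the inhibitor that NF-kB itself induces, rose from 536 and 663 to 1298, 2877 and 3318 CPM (log2 2.04, SE 0.42, edgeR adjusted p = 0.0037). Cd83, a surface marker of activated antigen-presenting cells, rose from 185 and 219 to 480, 1485 and 2133 CPM (log2 2.76, edgeR adjusted p = 0.00124). Gadd45b, Nr4a1, Atf3, Nfkbiz and Tnfaip3 were the other 5 that rose. Jun, a subunit of AP-1 that also responds to tissue dissociation, fell from 6197 and 5961 to 1696, 1996 and 3284 CPM (log2 -1.51, edgeR adjusted p = 0.00363), while Fos had a log2 value of -0.14 and did not pass. Ptgs2, the inducible cyclooxygenase, and Hcar2, a receptor for hydroxybutyrate, were among the 10 largest rises of genes that moved alike in all 6 libraries and were in none of the lists, with ratios of 222 (counting interval 39.5 to 8806) and at least 20.5.

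Genes of disease-associated microglia, a state described in neurodegeneration, rose in part. Of 24 tested, 13 rose and none fell, with a median log2 fold change of 1.48, and 4 and 7 rose without WT and without KO naïve. The list went from 183 and 194 UMIs per 10000 in naïve microglia to 295, 428 and 550, without overlap. Spp1, the secreted phosphoprotein osteopontin, had 0 naïve and 292 TAM I UMIs, at least 87.9-fold higher, although 1 cell of WT early held 66.8% of that library's Spp1 UMIs and the bound without WT early was 43.9-fold. Gpnmb, a lysosomal membrane glycoprotein, was at least 17.5-fold higher. Cst7, which codes for the protease inhibitor cystatin F, rose from 4.03 and 38.5 CPM to 0, 347 and 1050 CPM (log2 4.53, SE 0.99, edgeR adjusted p = 0.00582), with the 0 in the 6 cells of WT intermediate. Lgals3 (log2 5.14), Axl (3.41), Cd52 (3.13), Lyz2 (2.58), Fth1 (1.58) and Ctsb (1.52) also rose. Trem2, a lipid-sensing receptor, and Apoe, its ligand, did not pass, with log2 values of -0.37 and 1.28. The Apoe level spanned 13330, 612, 14125, 7621, 8096 and 5047 CPM, with KO early far below the rest.

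Counts of the smaller lists stand beside the 9.13% of all tested genes that were called higher and the 6.13% called lower. Among receptors for particles and microbial patterns 6 of 14 tested rose and 1 fell, with a median log2 fold change of 0.90, and 3 rose without either naïve library. Cd14, a co-receptor for lipopolysaccharide, rose by 2.22, Tlr2 by 2.85 and Cybb, the NADPH oxidase subunit, by 4.06, while Mertk, a receptor for apoptotic cells, fell by 1.10 on the log2 scale. Glycolysis and hypoxia genes gave 6 rises of 8 tested (median 1.27; 0 and 1 without WT and without KO naïve), among them Ldha (1.73), Pkm (1.58) and Mif (1.69). Of 13 proliferation and chromatin genes tested, 5 rose (median 1.13; 2 and 0), namely Mki67, Top2a, Tubb5, Ezh2 and Nasp, and 14 of the 27 listed were too low to test. Ezh2 and Nasp missed the threshold in 7 and 6 of 16 alternatives. Actin and motility genes gave only 2 rises of 11 tested (median 0.64), namely Tmsb4x and Vim, and Tmsb4x missed in 7 of 16 alternatives. Among enzymes of itaconate and arginine use, 4 of 5 tested rose (median 3.40; 2 and 1), namely Acod1, Arg1, Hmox1 and Nfe2l2. Arg1, arginase, is also a macrophage gene, and in KO late 1 TAM I cell held 82.1% of its 106 UMIs. Of 37 testable genes among 41 that the study had named for TAM I, 25 rose and 5 fell (median 1.94), but this list was chosen on the same samples and is no independent evidence of direction. Without WT naïve 10 rose and 2 fell, and without KO naïve 7 and 1.

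**Figure D4:**
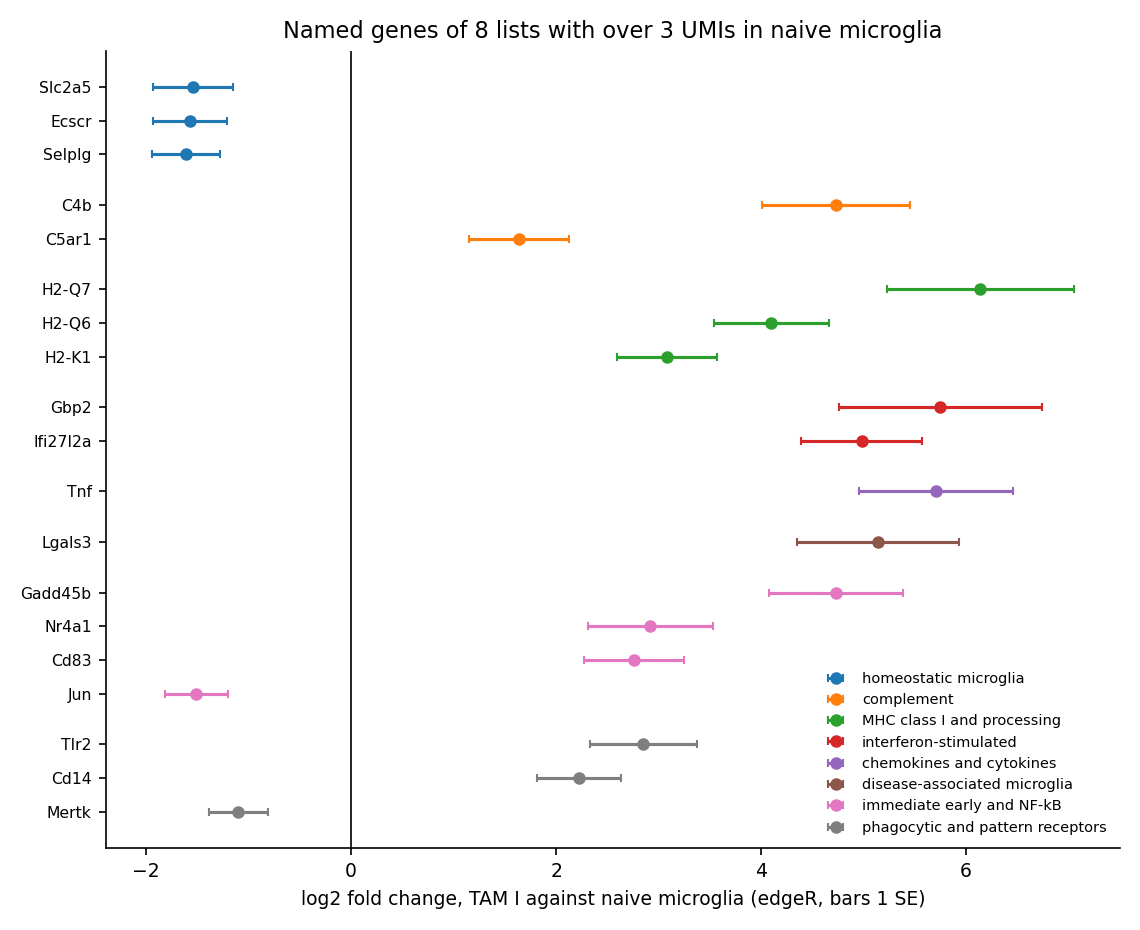
Fitted log2 fold changes of named genes with over 3 naïve UMIs, TAM I against naïve microglia, as points with bars of 1 SE, coloured by list. Interferon-stimulated, chemokine and MHC class I genes lie right of 0, homeostatic genes, Jun and Mertk left of it.

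The largest falls were in genes not known for microglial expression. The 10 largest that went the same way in every library were Aqp4, Scg3, Slc4a4, Gpr37l1, Mt3, Plpp3, Htra1, Gja1, Sparcl1 and Ndrg2, most of them astrocyte genes. Aqp4, a water channel of astrocyte endfeet, had 57 UMIs in naïve microglia and 0 in TAM I, at least 21-fold lower. Sparcl1 fell from 935 and 1231 to 0, 42.2 and 63.8 CPM (log2 -4.48, SE 0.42, edgeR adjusted p = 1.17e-05). All 5 astrocyte markers tested fell, and their list stood at 16.6 and 26.6 UMIs per 10000 in WT and KO naïve microglia against 0.95 to 2.76 in TAM I. Astrocyte UMIs reached 20 per 10000 in 17 of 99 WT and 33 of 129 KO naïve cells and in 0 or 1 TAM I cell per library. Oligodendrocyte markers fell in 5 of 6 tested, from 47.3 and 34 to 1.90 to 45.3 per 10000, with the highest value in WT late, where 1 cell reached 20 per 10000. Ttr, the choroid plexus transcript, fell by 3.66 on the log2 scale. Without cells that held 20 or more per 10000 of another cell type's markers, 75 WT and 85 KO naïve cells remained, and 481 genes passed, 408 of them among 478 of the original calls that could be tested. Of markers of other cells, 2 of 2 tumour genes (Col11a1 and Cd44) and 2 of 3 monocyte genes (Arg1 and Ms4a4c) rose, with lists at 0 to 0.08 and 0.30 to 1.89 per 10000 in naïve and at 0.68 to 6.74 and 0.93 to 14.5 in TAM I, highest in KO late. Ms4a4c missed the threshold in 7 of 11 alternatives and Cd44 in 5 of 16. No border macrophage, neutrophil or B cell marker passed, and no T and NK, dendritic, OPC, endothelial, mural and fibroblast or neuron marker was high enough to test. Their part in the gene lists above was not tested beyond the removal of such cells.

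Between KO and WT TAM I, the question was which genes of these cells differed with the loss of Irg1. Of 2207 genes tested with the stage as a block, 0 (0%) passed. At an unadjusted p under 0.05 edgeR's quasi-likelihood test gave 99 genes and DESeq2 44, and DESeq2 also called 0. Sdc4, a heparan sulphate proteoglycan, had the smallest p, with a log2 difference of -2.69 (KO minus WT, SE 0.45, edgeR adjusted p = 0.144). For Arg1 the log2 difference was 5.39 (edgeR adjusted p = 0.212), from 137 KO and 2 WT UMIs. Of the 137, 106 lay in 3 KO late cells and 30 in 1 KO intermediate cell, so a few cells carry this gene.

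No MHC or interferon gene passed between KO and WT over the 6 libraries, although their fitted values lay above 0. All 9 class II genes tested had a fitted value above 0 (median log2 1.29, 5 at an unadjusted p under 0.05), as did all 19 class I genes (median 0.85, 6) and all 26 interferon-stimulated genes (median 0.76, 8), beside a median of 0.02 over all genes. The class I list was at 313, 204 and 195 UMIs per 10000 in WT and at 382, 358 and 338 in KO, which did not overlap. Tumour cells of the same libraries followed, with 197, 94.1 and 79.3 in WT and 217, 206 and 246 in KO. Oligodendrocytes did so too, with 114, 18.0 and 34.3 against 209, 149 and 173. In TAM I the interferon list did not overlap either, at 68.3, 50.7 and 68.2 in WT and 112, 99.5 and 128 in KO. The disease-associated list did not overlap in the other direction, at 522, 550 and 452 in WT and 295, 404 and 355 in KO. These list sums were not tested. Genotype cannot be told apart here from the single library behind each value. Homeostatic genes had a median of -0.02 over 23 tested and disease-associated genes -0.46 over 22. Leaving out 1 library gave 5 to 44 calls, with 44 without WT early and 41 without KO early. In these fits 6 and 5 of the 9 class II genes passed as higher in KO (median log2 2.72 and 2.79), as did 3 and 3 of 19 class I genes (1.36 and 1.38) and 6 and 6 of 26 interferon-stimulated genes. Without any one of the other 4 libraries no class I or class II gene passed and at most 1 interferon-stimulated gene did. With the stage as a block, a library whose partner was left out adds nothing to the KO minus WT value. The fits without WT early and without KO early are therefore the same contrast, of the intermediate and late pairs. They hold WT intermediate and WT late, the libraries low in class II, against their KO partners. Whether such genes passed between KO and WT thus rested on whether the early pair was in the fit.

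Late against early TAM I asked which genes changed as tumours grew. Of 2207 genes, 0 (0%) passed with genotype as a covariate, with 83 at an unadjusted p under 0.05 in edgeR's quasi-likelihood test and 28 in DESeq2, which also called 0. Bcl2a1a, an anti-apoptotic gene with near-identical copies, had the smallest p, at a log2 difference of -2.50 (late minus early, edgeR adjusted p = 0.997). Class II genes had a median of -3.77 over 9 tested, 7 of them at an unadjusted p under 0.05, WT late being the library at 41.1 CPM of Cd74 beside 5405 CPM in KO late. This median rested on single libraries, being -0.22 without WT early and -1.99 without WT late (no class II gene passing in either), and -6.1 without KO early and -7.27 without KO late (7 and 5 passing). Proliferation and chromatin genes were above 0 in 12 of 12 tested, with a median log2 difference of 1.5, 5 at an unadjusted p under 0.05, beside a median of -0.01 over all genes. Their median ranged from 0.89 without KO early to 2.23 without WT early, and was 1.00 without WT late. Ezh2, a histone methyltransferase, had a log2 difference of 2.72 and the smallest p among the genes with higher fitted values (edgeR adjusted p = 0.997). Leaving out 1 library gave 7 to 37 calls, the most without KO early.

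The share of TAM I among cells not gated as tumour was 12.4%, 6.52%, 7.59%, 15.3%, 13.5% and 8.48%, with exact Clopper-Pearson 95% intervals of 9.59 to 15.8, 3.70 to 10.5, 2.84 to 15.8, 11.4 to 20.0, 8.45 to 20.1 and 5.51 to 12.4. By genotype it was 10.1% ± 4.63 (SD, n = 3) in KO and 11.2% ± 3.15 (SD, n = 3) in WT, and the difference of -1.07 percentage points was within the spread between libraries (exact permutation test, two-sided, p = 0.9, where 3 against 3 cannot give less than 0.1). Naïve microglia made up 21.4% of kept WT and 27.9% of kept KO cells. Among gated myeloid cells TAM I were 22.2% ± 9.15 (SD) in KO and 37.7% ± 10.8 (SD) in WT (n = 3 each, exact permutation test, two-sided, p = 0.2). Shares depend on the choice of 1000 barcodes by UMIs and on the 1000-gene limit, and the intervals and floors cover counting error only.

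TAM I cells varied in which transcripts were found at equal depth. After thinning to 1500 UMIs, Il1b was found in 63 of 167 cells, 37.7% (exact Clopper-Pearson 95% interval 30.4 to 45.5). Background was low for this gene, as 0% to 7.19% of tumour cells and 0% to 7.5% of oligodendrocytes held a UMI at the same depth, per library, and 0 naïve microglia did. Ccl12 was found in 94 cells, 56.3% (48.4 to 63.9), with 47.7% to 80% per library, against 6.12% and 9.38% of WT and KO naïve microglia, 0% to 2.16% of tumour cells and 0% to 5% of oligodendrocytes. Cst7 was found in 44, 26.3% (19.8 to 33.7), with 0% in WT intermediate to 36.4% in KO intermediate, against 1.02% and 0.78% of naïve microglia, 0% to 0.72% of tumour cells and 0% to 7.5% of oligodendrocytes. Ccl3 or Ccl4 was found in 79.2% to 100% of the cells per library, against 48.0% and 47.7% of WT and KO naïve microglia, 0.69% to 6.48% of tumour cells and 0% to 12.5% of oligodendrocytes. Median depths before thinning were 2624 to 3750 UMIs in TAM I, 3294 to 6416 in tumour cells and 2057 to 3521 in oligodendrocytes. Proliferation transcripts Mki67 or Top2a were found in 31 cells, 18.6% (13 to 25.3), with 10, 2, 0, 5, 6 and 8 cells per library, against 1 cell in each naïve library. Of the tumour cells, 55.9% to 67.4% per library held either transcript, and the part of their free RNA in the TAM I shares was not tested.

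Beside the infiltrating macrophages of the same libraries, 430 cells that the rule's macrophage genes picked, TAM I kept a separate profile. As both groups were gated on expression, the following is a description with no test. Among 4428 genes with at least 100 UMIs, 77 were over 2-fold higher in TAM I in every library and 93 in macrophages. Slco2b1, a transporter, led in TAM I with a median log2 ratio of 4.42 (log2 of CPM plus 10), followed by Crybb1 (4.19), Sparc (4.01), Pmp22 (3.62) and Tmem119 (3.55). Arg1 (-5.64), Ifitm1 (-4.75) and the lectin Clec4n led in macrophages. Gene for gene, TAM I held more Ccl3 (3.38), Ccl4 (3.33), Tnf (2.68), Ccl12 (1.89) and C1qa (1.45) in 6 of 6 libraries. Ccl4 was at 3230, 12157, 12323, 5611, 8157 and 3341 CPM in TAM I and at 323, 877, 970, 709, 1690 and 308 CPM in macrophages. Macrophages held more Lyz2 (-3.09), Il1b (-1.73), Apoe (-0.84) and Cd74 (-0.51) in 6 of 6. The level of Il1b was 2285 to 6179 CPM in macrophages against 807 to 1925 CPM in TAM I. The median log2 ratio over all genes was -0.16.

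**Figure D5:**
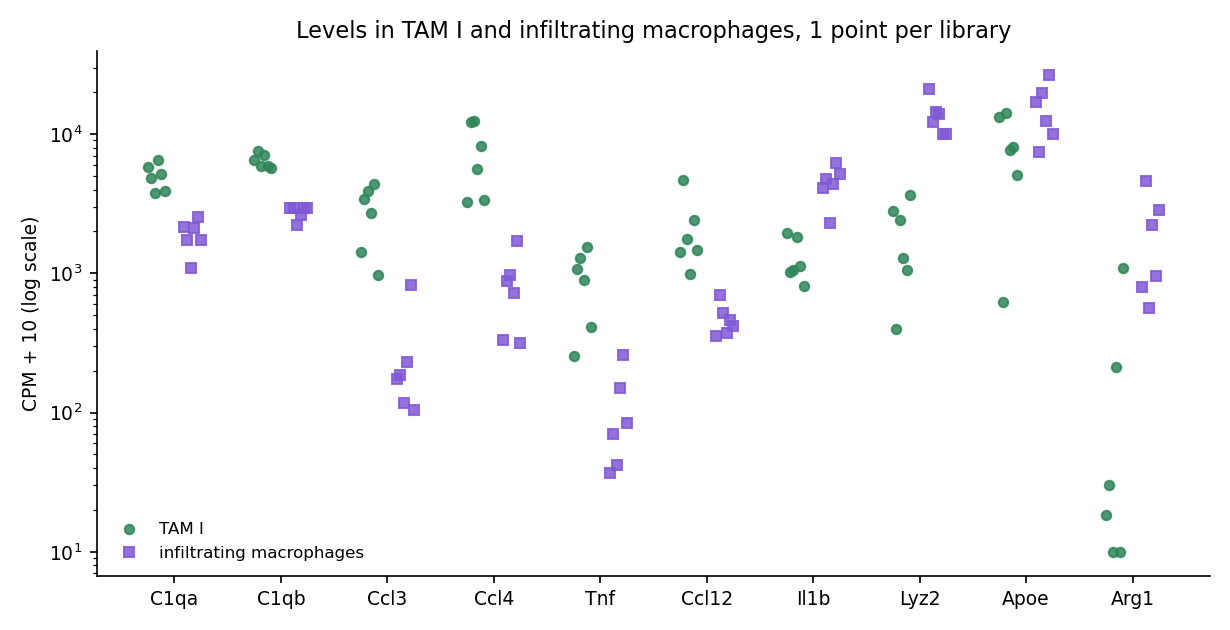
Levels of 10 genes (CPM plus 10, log axis) in TAM I (circles) and infiltrating macrophages (squares), 1 point per tumour-bearing library and class. Library by library, C1qa, C1qb, Ccl3, Ccl4, Tnf and Ccl12 were higher in TAM I in all 6, and Lyz2, Il1b and Apoe in macrophages.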

How the data were processed

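Drop-seq UMI tables of 8 libraries were used. The authors deposited raw UMI counts per gene and barcode, made with bcl2fastq 2.0 and STAR (version not given in the sources used here) on GRCm38/mm10 through the Drop-seq pipeline, per the labels' processing notes and the study's methods, with no normalization. Cells were gated as described, UMIs summed per library, and the sums tested with edgeR 4.0.16 (TMM, filterByExpr, quasi-likelihood test, Benjamini-Hochberg adjustment, genotype or stage as covariate) in R 4.3.3, with at least 5 cells per library. DESeq2 1.42.0, other scalings, filters and gates, and leaving out each library were alternatives, and bounds against 0 naïve UMIs without the library holding most UMIs were added after seeing the data. No doublet caller was run, and cells with markers of other types were removed in 1 alternative. The scripts were tested on simulated data. There, 100% of 8-fold and 12.5% of 2-fold changes were called between KO and WT, and 90% and 0% between late and early. Calls of 0 in these comparisons thus do not speak to small changes. Members and gene lists were chosen with earlier results of these data known. Named genes were those the study named for TAM I, the 10 largest changes each way that moved alike in all 6 libraries, up to 3 per list, and the 5 with the smallest p each way for genotype and stage, with the 10 largest ratios each way against macrophages. A few genes and 1 alternative gate are not reported here. Genes named beyond these were chosen after their values were seen.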

Additional observations from a re-analysis of the deposited data

Results flagged for a closer look

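In TAM I, 19 of 129 values tested had 1 of the 6 tumour-bearing libraries set apart from the rest by a gap past Dixon's 95% critical value for the ratio of gap to range, where chance sets apart about 1 group in 20. WT late stood highest for the oligodendrocyte list, at 45.3 UMIs per 10000 (next 5.19), and with it Ermn at 195.4 CPM (34), Mag at 195.4 (71.5) and Mobp at 154 (42.5), and 1 of its 20 cells held 20 or more such UMIs per 10000. KO late stood highest for the monocyte and macrophage list at 14.5 per 10000 (5.69), the tumour list at 6.74 (2.45), Arg1 at 1083 CPM (202) and Gbp2 at 1982 CPM (712). KO intermediate was highest for Cxcl10 at 1472 CPM (673), Nr4a3 at 430.1 (123) and Slc4a4 at 13.4 (0). KO early was highest for Ifi27l2a at 2611 CPM (1246) and Jun at 3284 (2212), and lowest for Cd300lf at 20.4 (133). WT intermediate was highest for the phagocytic receptor list at 83.4 per 10000 (69.2) and for Bin1 at 1943 CPM (1102). WT early was highest for the T and NK list at 0.553 per 10000 (0.204), Htra1 at 12.8 CPM (0) and Scg3 at 4.25 (0). For Slc4a4, Htra1 and Scg3 the value is 2, 3 and 1 UMIs with 0 in the other libraries, so that the gap is the whole range by construction.

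For Pf4, a chemokine of platelets and border macrophages, the fit gave a log2 difference of 7.98 between the KO and the WT change (SE 1.497, edgeR interaction term, adjusted p = 0.0447). It was 1 of 4797 genes tested to pass, and 55 were at an unadjusted p under 0.05. WT naïve microglia held 78 Pf4 UMIs in 4 cells and KO naïve 1 UMI, and each naïve arm is 1 library, so the value compares these libraries and a genotype difference cannot be told apart from the content of 4 cells. Mt1, a metallothionein, was above its naïve level in all 3 WT libraries (782, 1943 and 957 against 576 CPM). It was below that level in all 3 KO libraries (551, 262 and 92.0 against 707 CPM), a difference between the changes of -1057 CPM. As Pf4 alone passed the interaction test, Mt1 did not pass it.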

How the results depend on the processing

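Against naïve microglia, the 533 calls became 308 with a gate sum of at least 20 (299 of 451 of the original calls that could be tested passed) and 77 to 561 when 1 library was left out, with 142 without WT naïve and 77 without KO naïve. The other alternatives gave 432 (DESeq2) to 768 (no filter). The 0 calls between KO and WT became 7 with no filter, 14 with at least 10 cells per library, 2 with a gate sum of at least 20, 2 without cells holding other-type UMIs and 5 to 44 with 1 library left out. Those between late and early became 7, 15 and 3 under the first 3 of these and 7 to 37 with 1 library left out. Leaving out WT intermediate or asking for 10 cells per library is the same fit. The KO minus WT difference in share was -0.50 with a gate sum of at least 20 and -3.68 to 0.72 percentage points with 1 library left out, and turned positive without KO early (0.72) and without WT late (0.09). Arg1, late minus early, was 3.67 on the log2 scale. It ran from -3.05 to 5.59 with 1 library left out, and was reversed without KO early (-3.05) and without KO late (-2.51). Of the values of 86 named genes against naïve microglia under the alternatives, 1198 kept their call, 142 lost it and 9 gained it, all with the same direction. The cause of these changes was not tested. Depth limits WT intermediate most, with 6 cells and 21098 UMIs.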
